A study of Mus musculus with 12 samples.

Results

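Megakaryocytes and platelets were looked for by their RNA in the livers of 12 neonatal mice, and 383 of 202557 kept cells (0.189%) were selected on their own transcripts. A kept cell had 500 to 50000 unique molecular identifiers (UMIs, each a captured mRNA molecule) and at most 20% mitochondrial UMIs. A member held at least 5 UMIs in all of Pf4, Ppbp, Itga2b and Gp9 with at least 2 of these 4 genes detected, no UMI of the lymphocyte genes Cd79a and Cd3e or the sinusoidal endothelial gene Stab2, at most 1 UMI of the macrophage genes C1qa, C1qb and C1qc, and less than 50% adult globin RNA. These genes chose the members, so their levels are a description and were not tested. Wild-type C57BL/6J littermates of both sexes made up 2 groups of 6. The anemic pups had phlebotomy-induced anemia (PIA): 20 µL of blood per gram of body weight was drawn from the facial vein on postnatal days 2, 4, 6, 8 and 10, to lower the hematocrit from 45–60% to 20–24%. Control pups received a daily needle stick that drew no blood. All livers were taken on day 11, 24 h after the final draw, dissociated with enzymes, and profiled by droplet scRNA-seq with 1 library per mouse, so each value stands for 1 animal.

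Megakaryocytes are the large, polyploid cells of the hematopoietic lineage that shed platelets. They arise from progenitors shared with the erythroid lineage, grow by replicating DNA without dividing, fill with granules, and extend proplatelets into the blood. The liver of the fetus and newborn still makes blood, so it can hold megakaryocytes, while platelets reach it with the circulation and lack a nucleus. Pf4 and Ppbp are chemokines of the alpha granule, Itga2b is the alpha chain of the fibrinogen receptor, and Gp9 is a chain of the GPIb-IX-V receptor for von Willebrand factor.

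Total UMIs per library were 46252146 to 74545930 and kept cells 13936 to 21008, with medians of 1776 to 2909 UMIs per kept cell. By Y-linked RNA and Xist, 4 of the control and 2 of the anemic mice were female. In all, 9902 kept barcodes occurred in more than 1 library, 23 of them members. As a measure of background, at least 1 UMI of the 4 marker genes was found in 1.92% to 5.33% of the B cells (Cd79a of at least 3 UMIs) of a mouse, where the 4 genes summed to 11.2 to 28.8 UMIs per 1000000 UMIs (CPM) in the control and 7.98 to 35.0 CPM in the anemic livers. Among all kept cells that were not members, the share was higher, at 6.55% to 16.2%, with 54.2 to 149 CPM. Per mouse, 126 to 481 kept cells held at least 5 marker UMIs, and 25 to 264 of a mouse also had 2 of the genes detected.

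Marker genes of megakaryocytes can be placed in the genome. Windows of 150 bases before the transcription start of 4 surface or granule genes are shown (RefSeq, GRCm38.p6), because GATA1 and ETS factors such as FLI1 are known regulators of megakaryocyte genes. Pf4 and Gp9 are genes of the rule, and Gp1ba and Gp5 are not. Capitals mark a GATA motif, spelled AGATAA in one form and TGATAA in the other, and an ETS motif, which is spelled AGGAAG. Each was searched on both strands, and no marked stretches overlap.
Pf4, chr5:90772285-90772434, + strand: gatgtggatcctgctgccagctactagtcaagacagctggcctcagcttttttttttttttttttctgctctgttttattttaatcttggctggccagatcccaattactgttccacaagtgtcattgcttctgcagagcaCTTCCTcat
Gp9, chr6:87777920-87778069, + strand: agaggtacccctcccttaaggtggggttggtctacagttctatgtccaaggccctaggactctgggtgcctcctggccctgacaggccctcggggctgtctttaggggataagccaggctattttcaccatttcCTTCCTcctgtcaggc
Gp1ba, chr11:70638972-70639121, + strand: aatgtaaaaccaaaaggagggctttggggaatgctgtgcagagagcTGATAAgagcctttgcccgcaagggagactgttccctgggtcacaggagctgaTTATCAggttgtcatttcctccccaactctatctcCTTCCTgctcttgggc
Gp5, chr16:30310782-30310931, - strand: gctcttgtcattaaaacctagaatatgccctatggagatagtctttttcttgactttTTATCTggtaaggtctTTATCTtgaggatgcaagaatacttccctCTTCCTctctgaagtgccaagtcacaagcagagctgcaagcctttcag
Of 18 marker genes asked for (the 4 of the rule and 14 others), 13 matched the table. The GATA letters stood in 5 of these 13 windows against 9.65% of all 32851 promoter windows of this length, and the ETS letters in 7 of 13 against 19.7%. Both kinds stood in 3 of the 13, those of Gp1ba, Gp5 and F2rl2, against 1.78% of all windows. The 4 windows shown all hold a motif. Of the rule genes not shown, Itga2b has an ETS motif in its window and Ppbp has neither kind. These matches describe the letters of the windows and do not show binding.

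Genes the rule did not read describe the members further. Among genes of at least 100 CPM in the members, those that most exceeded the other kept cells included Treml1, Gp1bb, Gp5, F2rl2, Alox12, Trpc6, Tmem40, Rgs18 and Nrgn. Each was higher in the members than in the other kept cells of the same liver in 12 of 12 mice. Treml1, a platelet receptor stored in alpha granules, averaged 222 ± 118 CPM in the members (SD, n = 12 mice) and 0.753 CPM elsewhere, a ratio of 295. Gp1bb and Gp5, partners of Gp9 in the von Willebrand factor receptor, stood at 217-fold and 172-fold the level of other cells. F2rl2, the thrombin receptor PAR3, averaged 180 ± 101 CPM against 1.51 CPM. In 291 early erythroid progenitors, the closest lineage (at least 3 UMIs of Car1, Klf1 and Gata1 with 2 of them detected, at most 1 marker UMI and under 10% globin RNA), Treml1 averaged 1.65 CPM and Pf4 1.74 CPM, whereas Tmem40 at 38.6 CPM and Nrgn at 33.2 CPM lay nearer to the members. These levels are set by the choice of cells and were not tested. The genes were picked by their ratio in these data, so their excess is no check of identity. Each of the 14 marker genes outside the rule was detected in 4.96% (Gfi1b) to 48.6% (Clec1b) of the members, Treml1 in 36.3%.

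**Figure D1:**
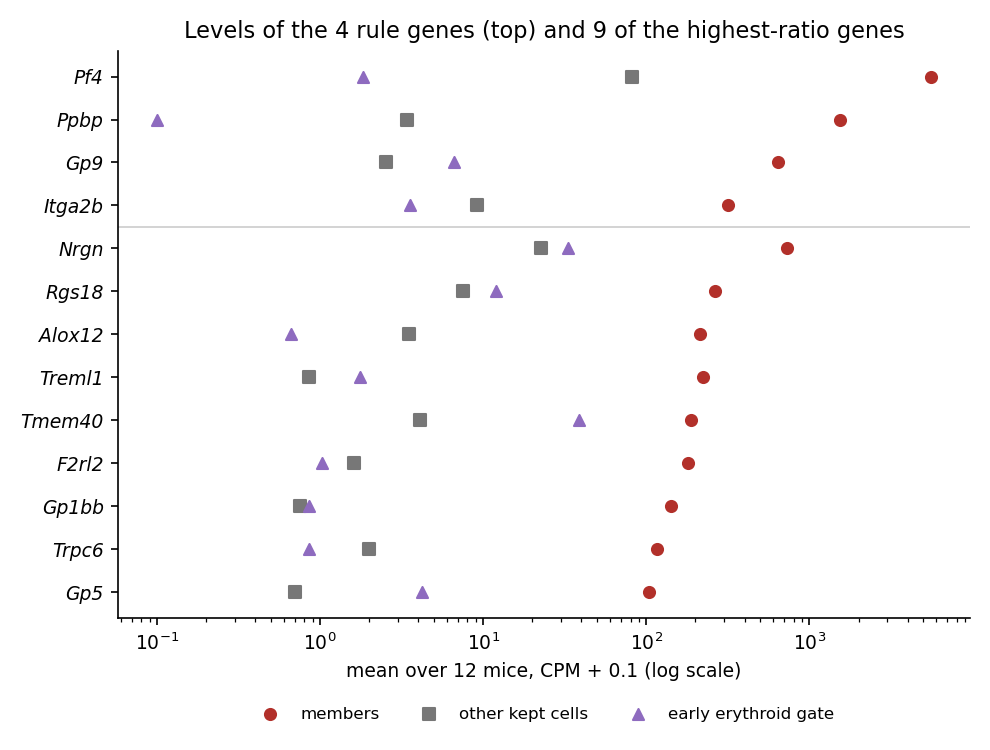
Mean level over 12 mice (CPM plus 0.1, log scale) of the 4 genes the rule read, above the line, and of 9 of the genes with the highest ratio, in the members (circles), other kept cells (squares) and the early erythroid gate (triangles). Members sit to the right for every gene, with Treml1 at 222 CPM against 0.753 CPM in other kept cells.

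The members were not of one kind. Of 383, 37 had Malat1, an RNA held in the nucleus, at under 0.1% of their UMIs. These 37 barcodes were small (median 1097 UMIs and 560 genes) and rich in platelet RNA, with a median of 3.42% of UMIs from the 4 marker genes and, pooled, 22118 CPM of Pf4, 15588 CPM of Ppbp and 2622 CPM of Clec1b, the platelet podoplanin receptor. Another 144 members had more Malat1 and lay below 6 limits on RNA of endothelial, neutrophil, monocyte, lymphoid, stellate and hepatocyte genes. They were larger (median 5646 UMIs and 2297.5 genes), with 0.296% marker RNA and 4148 CPM of Pf4 but 508 CPM of Ppbp. Kit, a receptor of progenitors, was detected in 35 of these 144 and in 0 of the 37, which allows a share of up to 8.11% of the 37 with a Kit UMI. This is no limit on cells that express Kit, since none of the 63 members below 2000 UMIs, whatever their Malat1, held a Kit UMI. The remaining 202 members passed a limit for another cell type (median 5518.5 UMIs, 0.169% marker RNA). In all, 123 members held monocyte or macrophage RNA above its limit, 57 stellate, 27 neutrophil, 25 endothelial, 11 hepatocyte and 10 lymphoid RNA, some of them for more than 1 type. Of 14 further megakaryocyte genes, at least 3 were detected in 180 members and none in 52, so the label holds for part of the gate more firmly than for the rest. By group, with no test, members below all 6 limits were 63.0% of the control and 41.0% of the anemic members, and those low in Malat1 18.5% and 8.21%. These percentages pool mice, and anemia 2 and anemia 3 gave 214 of the 329 anemic members. By mouse both overlapped. Members low in Malat1 were 0 of 8 (control 6) to 2 of 4 (control 1), and 3 of 92 (anemia 3) to 7 of 41 (anemia 4). Members below all 6 limits were 3 of 9 in control 4 and 17 of 30 in anemia 1. The median marker sum of a mouse was 8 UMIs in control 4, 30 to 44 in the other 5 controls and 9 to 13 in the anemic mice. "Strict gate" below means the 169 members, of either Malat1 level, below all 6 limits. The limits are in UMIs for 5 of the types, so a deeper barcode exceeds one more readily.

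**Figure D2:**
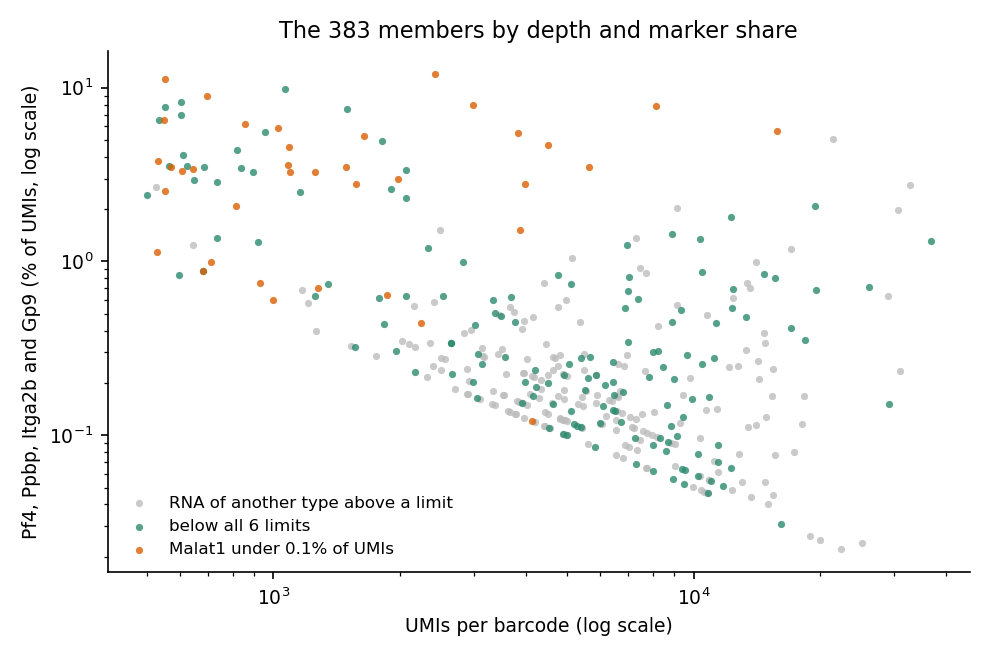
Each point is 1 of the 383 members, by UMIs per barcode and by the percentage of UMIs from Pf4, Ppbp, Itga2b and Gp9 (both log scales), coloured by Malat1 and by RNA of other types. The 37 barcodes low in Malat1 (median 1097 UMIs) lie mostly to the upper left, and the lower edge is the rule's minimum of 5 marker UMIs.

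Deeper members held more UMIs of cell cycle genes. The 78 members with at least 10000 UMIs had a median of 45.5 UMIs of 36 S, G2 and M phase genes, against 1 in the 242 members with 2000 or more but fewer than 10000 UMIs and 0 in the 63 below 2000 UMIs. These counts are not scaled to depth, and a deeper barcode holds more UMIs of most genes. Of the 78, 28 were in the strict gate, and the others held RNA of another type above a limit. All 4 marker genes were detected in 28 of the 78 largest, in 55 of the 242 and in 25 of the 63. Just inside the rule, 48 members had exactly 5 marker UMIs (6 control, 42 anemic). Just outside it, 86 otherwise passing cells had 4 (14 control, 72 anemic). At the other end, 121 members held 20 or more.

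Members were more frequent in the anemic livers. The control livers held 4 to 13 members each (54 in all) and the anemic livers 18 to 122 (329 in all). As a percentage of kept cells the controls ran from 0.0263% to 0.0933% (median 0.0520%) and the anemic mice from 0.102% to 0.690% (median 0.204%). Every anemic mouse lay above every control. The means were 0.0573% ± 0.0257 and 0.301% ± 0.222 (SD, n = 6 each), a 5.26-fold ratio, with p = 0.00216 in the exact two-sided Mann-Whitney test, the smallest that 6 against 6 mice can give, and 0.00649 after adjustment over the 3 shares tested. Within males the shares were 0.0263% and 0.0393% in 2 controls and 0.102% to 0.438% in 4 anemic mice, and within females 0.0450% to 0.0933% in 4 controls and 0.222% and 0.690% in 2 anemic mice. Anemia 2 and anemia 3 held 214 of the 329 anemic members. Without these mice the difference fell from 0.244 to 0.112 percentage points (p = 0.00952, exact test), and without anemia 2 alone it was 0.166 (p = 0.00433, exact test). Since the groups did not overlap, both p values are the smallest that the remaining mice can give.

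The size of the difference varied with the gate. At 20 or more marker UMIs the controls held 0.0131% to 0.0574% (median 0.0309%) and the anemic mice 0.0395% to 0.130% (median 0.0790%). These groups overlapped, with means of 0.0326% and 0.0834%, a 2.56-fold ratio and p = 0.00866 in the exact Mann-Whitney test. In the strict gate the means were 0.0359% ± 0.0164 and 0.122% ± 0.0823 (SD, n = 6 each), a 3.41-fold ratio, with 4 of 6 anemic mice above every control and p = 0.0260 in the exact test. With cells thinned to 1000 UMIs, the limit lowered to 3 marker UMIs, and 14715 control and 16548 anemic cells below that depth left out, the ratio was 3.10 (p = 0.0260, exact test). This thinning was 1 random draw, with 1 (control 1) to 10 (control 3) members in a control mouse. Among cells with a UMI of the leukocyte gene Ptprc, by contrast, the means were 0.0280% and 0.363% (p = 0.00216, exact test), and among cells under 10% globin RNA the ratio was 6.05. Ptprc was detected in 11 of 54 control members (20.4%) and 196 of 329 anemic members (59.6%), 159 of the latter in anemia 2 and anemia 3. These shares are of captured barcodes, and more members cannot be told apart from fewer cells of other kinds in the suspension.

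**Figure D3:**
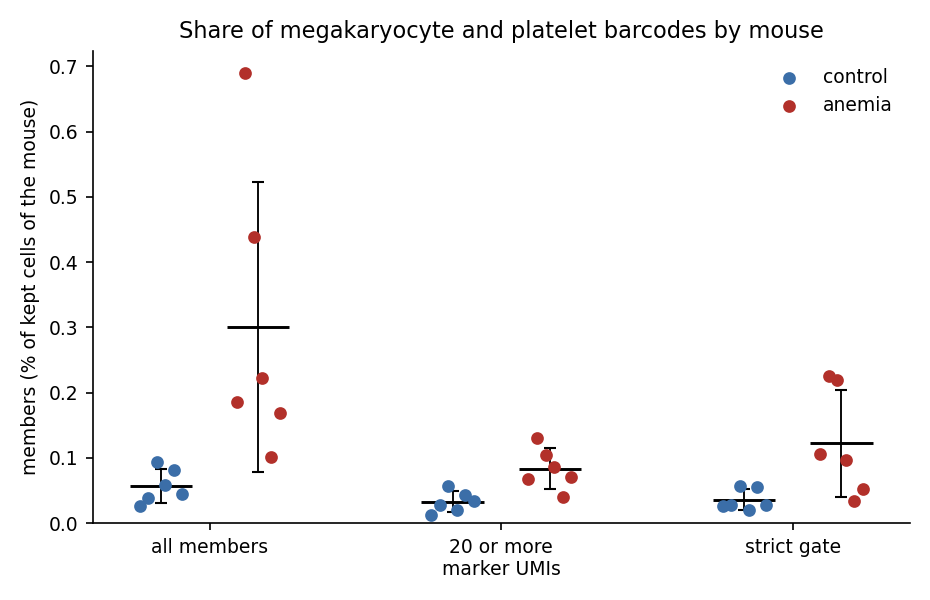
Members as a percentage of the kept cells of each mouse, for all members, for those with at least 20 marker UMIs and for the strict gate. Points are mice (6 control, 6 anemic), lines the mean and bars the SD. Means were 0.0573% and 0.301% for all members and 0.0359% and 0.122% in the strict gate.

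RNA of monocytes was more frequent among the pooled anemic members, mainly those of anemia 2 and anemia 3. Monocyte or macrophage RNA above its limit was found in 4 of 54 control and 119 of 329 anemic members, 65 of the latter in anemia 2 and 35 in anemia 3. As shares these were 7.41% and 36.2%. These shares, and those below for other types, pool the members of a group. By mouse the monocyte shares overlapped. Anemia 1, 4, 5 and 6 had 5 of 30, 5 of 41, 4 of 18 and 5 of 26 members. Control 3 had 2 of 13 and control 4 had 2 of 9. Stellate RNA was found in 20.4% of the control and 14.0% of the anemic members, neutrophil RNA in 3.70% and 7.60%, and endothelial RNA in 7.41% and 6.38%. Cells with monocyte RNA that met every condition but the marker sum numbered 4355 in control and 10261 in anemic livers, 7141 of the latter in anemia 2 and anemia 3. The other 4 anemic mice held 595 to 904 of them each, within or just below the 630 to 968 of the controls. Among these cells, members made up 0% to 0.307% in control and 0.464% to 1.52% in anemic mice, without overlap. Among the cells below all 6 limits they made up 0.205% to 0.523% in control and 0.542% to 2.04% in anemic mice, again without overlap. Here the lowest anemic share was 6 of 1106 cells (anemia 5) and the highest control share 9 of 1721 (control 5). With 1 member fewer in anemia 5 the groups would overlap. As a share of all kept cells the same members did overlap, with 4 of 6 anemic mice above every control. No doublet caller was run, and droplets with a monocyte and a platelet, doublets and free RNA cannot be told apart here.

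For the shares of large and of cycling members, the difference between groups was smaller than the spread among mice. Members with at least 10000 UMIs made up 14.3% to 30.8% of the members of a control mouse (median 23.6%) and 16.3% to 29.3% of an anemic mouse (median 21.5%). The groups overlapped throughout, with means of 22.1% ± 6.30 and 22.4% ± 5.26 (SD, n = 6 each, p = 0.905, exact Mann-Whitney test). After thinning members to 1000 UMIs, 34.6% ± 22.3 of the control and 33.0% ± 3.66 of the anemic members held at least 2 cell cycle UMIs (SD, n = 6 each, p = 0.818, exact Mann-Whitney test). The control percentages rest on 3 to 13 members per mouse and ran from 0% to 66.7%. Thinning was 1 random draw. Another draw on the same control members, made for the limit of 50% mitochondrial UMIs, gave a control mean of 36.7%. Control 4 went from 0% to 12.5% in it. Without thinning the means were 65.6% and 55.2% of the same members, 49 control and 298 anemic, and in the strict gate 60.0% ± 21.8 and 42.8% ± 18.4 after thinning (SD, n = 6 each, p = 0.115, exact Mann-Whitney test).

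For gene expression, UMIs were summed over the members of each mouse, which gave 28692 to 85918 UMIs in control and 125947 to 756017 in anemic mice. A single UMI is therefore worth 34.9 CPM in control 1 and 1.32 CPM in anemia 2. With edgeR's quasi-likelihood test and Benjamini-Hochberg (BH) adjustment, 0 of 6630 tested genes were called at 0.05 (percent called, 0). At an unadjusted p under 0.05 there were 765 genes, 601 higher (9.06% of those tested) and 164 lower (2.47%). A gene high in anemia passes the filter on a mean of 5 UMIs more easily, since the anemic members hold more UMIs. Among the 5861 tested genes with at least 10 control UMIs, 329 were higher (5.61%). The split between higher and lower genes is therefore a description. DESeq2 called 34 genes, 33 higher and 1 lower, and limma voom called 0. The median log2 fold change of all tested genes was 0.10. The genes the rule read were left out of the test.

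No tested platelet receptor gene passed the test in either direction. In members of a mouse Pf4 ran from 3499 to 11127 CPM in controls (median 5868.3) and from 1950 to 7531 CPM in anemia (median 3156), with overlap. Ppbp ran from 442 to 3555 CPM and from 467 to 3914 CPM, and Gp9 from 210 to 1324 CPM and from 296 to 1207 CPM. Itga2b ran from 291 to 453 CPM in controls and from 143 to 619 CPM in anemia. These 4 levels follow from the gate and carry no test. The largest barcode of a mouse held 125 to 609 marker UMIs in controls and 140 to 1093 in anemia. A single barcode can therefore carry much of the level of a mouse. Among 29 genes of platelet receptors and adhesion, 21 were tested and 0 called, 17 had a negative log2 fold change, beside 42.8% of all tested genes, and the list median was −0.50 beside 0.10 for all genes. Without anemia 2 and anemia 3, 7 of 20 were positive and the median was −0.26. Gp1bb had means of 142 ± 41.6 and 140 ± 85.4 CPM (SD, n = 6 each; log2 fold change 0.01). Cd9, a tetraspanin of the platelet membrane, ran from 663 to 2649 CPM in controls (median 1770) and from 483 to 1651 CPM in anemia (median 726). Its groups overlapped (log2 fold change −0.86, edgeR adjusted p = 0.389). Clec1b averaged 425 ± 293 and 238 ± 153 CPM (SD, n = 6 each). Fcer1g, the signaling chain that GPVI shares with myeloid Fc receptors, had a positive log2 fold change of 1.81, with 211 ± 87.9 and 675 ± 433 CPM (edgeR adjusted p = 0.150), and in the other kept cells it stood at 773 CPM, above the members in 12 of 12 mice. Its log2 fold change was 0.81 under the strict gate and 1.05 without anemia 2 and anemia 3.

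No granule or release gene was called. Of 20 genes of alpha granule cargo and assembly, 15 were tested and 0 called (median log2 fold change −0.29). Tgfb1, the growth factor stored in alpha granules, averaged 1327 ± 392 CPM in control and 984 ± 176 CPM in anemic members (SD, n = 6 each). Sparc, a matrix protein of alpha granules that stellate cells also make, averaged 1236 ± 1097 and 2145 ± 1199 CPM, and its mean over all 12 mice was 1691 CPM in the members but 76.2 CPM in the strict gate, which limits stellate RNA. Clu, a chaperone of the same granules, averaged 950 ± 945 and 654 ± 352 CPM. Of 20 dense granule and vesicle release genes, 13 were tested and 0 called (median 0.05). Rab27b, the GTPase of dense granule secretion, ran from 181 to 662 CPM in controls (median 367) and from 60.8 to 256 CPM in anemia (median 192), with overlap (log2 fold change −0.99, edgeR adjusted p = 0.295). Vamp8, the main SNARE of platelet secretion, averaged 178 ± 52.6 and 172 ± 36.2 CPM (SD, n = 6 each).

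The cytoskeletal and signaling lists behaved likewise. Of 30 proplatelet cytoskeleton genes, 26 were tested, 0 called and 19 positive (median 0.15). Actb alone took 22983 ± 8465 CPM in control and 24650 ± 7059 CPM in anemic members, above the other kept cells in 12 of 12 mice, Pfn1 (profilin) 1540 ± 331 and 1649 ± 467 CPM, and Tagln2 (transgelin 2) 1256 ± 203 and 978 ± 114 CPM (SD, n = 6 each). Of 30 platelet signaling and eicosanoid genes, 29 were tested and 0 called, 19 of them negative (median −0.17). Gng11, a G protein gamma subunit, averaged 1084 ± 675 and 498 ± 292 CPM, Rap1b, the GTPase that activates the fibrinogen receptor, 1301 ± 250 and 888 ± 259 CPM, and Prkg1, the cGMP-dependent kinase, 1071 ± 517 and 628 ± 383 CPM (SD, n = 6 each). Their edgeR adjusted p values were 0.425, 0.482 and 0.587.

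Lineage genes showed no call. Of 27 megakaryocyte transcription factor genes, 20 were tested and 0 called (median −0.25). Runx1 averaged 778 ± 537 and 604 ± 165 CPM and Mef2c 953 ± 482 and 593 ± 217 CPM (SD, n = 6 each). Of 27 genes of the progenitor and fetal program, 17 were tested, 0 called and 11 negative (median −0.52). The nucleolar genes Npm1 and Ncl averaged 767 ± 358 against 466 ± 129 CPM and 659 ± 266 against 417 ± 109 CPM, and Cdk6, a kinase of progenitors, 392 ± 209 against 220 ± 85.0 CPM (SD, n = 6 each). Of 42 endomitosis and cell cycle genes, 35 were tested, 0 called and 25 positive (median 0.19). Top2a averaged 309 ± 263 and 301 ± 114 CPM and Ccnd3, the cyclin D of polyploid megakaryocytes, 248 ± 58.0 and 313 ± 112 CPM (SD, n = 6 each). The 11 tested erythroid lineage genes had a median of 0.12 with 0 called. Of 23 tested hypoxia and glycolysis genes 18 were positive (median 0.38, 0 called), with Gapdh at 2330 ± 587 and 2849 ± 661 CPM and Pkm at 460 ± 62.4 and 663 ± 263 CPM (SD, n = 6 each). Without anemia 2 and anemia 3, 12 of 20 were positive (median 0.05), and the log2 fold changes of Gapdh and Pkm went from 0.42 to 0.14 and from 0.65 to 0.17. Of the 10 tested iron and ferritin genes 5 were positive, and of the 17 tested cytokine and chemokine genes 12 (median 0.54), with 0 called in either list. Under the strict gate the list median turned to −0.16 for the proplatelet cytoskeleton (8 of 22 positive), −0.41 for dense granules, 0.07 for transcription factors and −0.29 for erythroid genes, beside 0.03 for all genes. It was −0.09 for the progenitor program, 0.06 for the cell cycle and 0.16 for cytokines and chemokines. Other lists kept their direction, with −0.34 for platelet receptors (3 of 12 positive) and −0.43 for alpha granules (2 of 10). Platelet signaling stood at −0.19 (6 of 20), hypoxia and glycolysis at 0.26 (15 of 18), and iron and ferritin at 0.19 (3 of 5). Without anemia 2 and anemia 3 the dense granule and erythroid medians were −0.43 and −0.14.

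**Figure D4:**
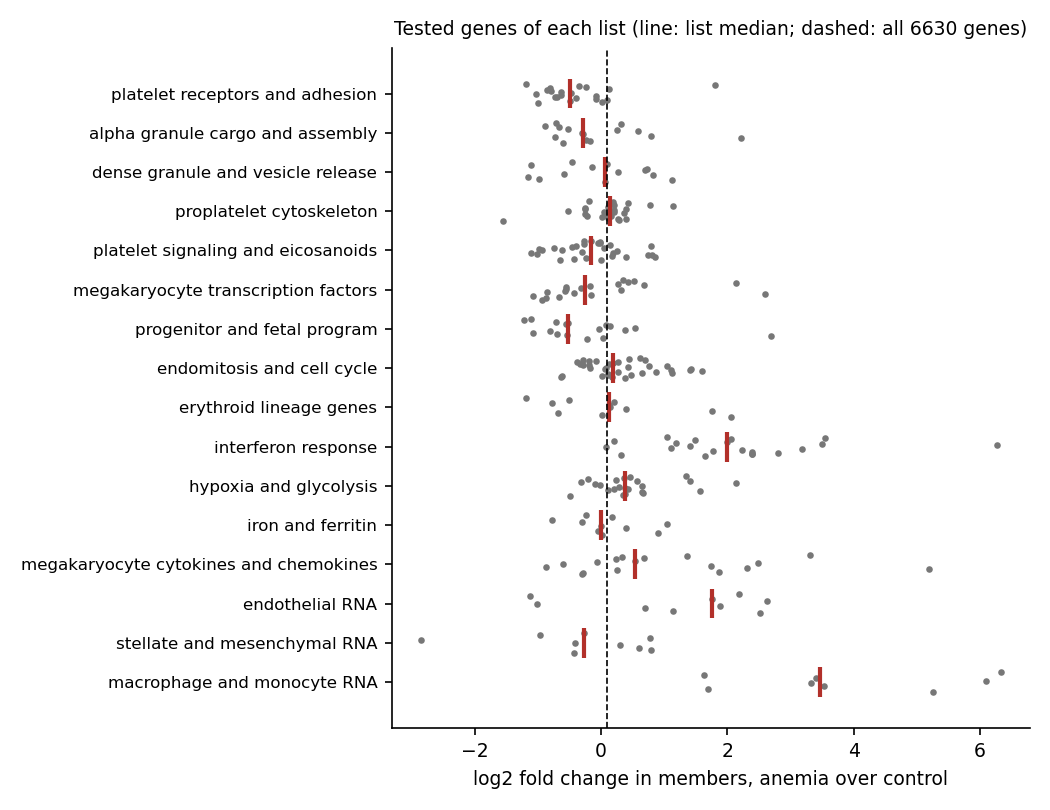
Log2 fold change (anemia over control, edgeR) of each tested gene in 16 lists; red lines are list medians and the dashed line is the median of all 6630 genes. The interferon list (median 2.00) and the macrophage and monocyte list (median 3.46) lie to the right, and platelet receptors (median −0.50) to the left, with no gene called.

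Interferon-induced genes, which respond to viral and inflammatory signals, had positive fold changes but no call. All 26 genes of the list together ran from 732 to 2225 CPM in the members of control mice (median 1177) and from 1440 to 6472 CPM in those of anemic mice (median 2260). The highest value was that of anemia 2, and in 3 of the 6 anemic mice it exceeded every control. In the other kept cells the same sum was 2455 to 4195 CPM in control and 2380 to 6962 CPM in anemia, again highest in anemia 2. Under the strict gate the members ran from 687 to 1551 CPM in control and from 833 to 3838 CPM in anemia. Of the 21 genes tested, 0 were called, all 21 had a positive log2 fold change (median 2.00) and 15 had an unadjusted p under 0.05, beside the 9.06% of all genes given above. The filter on a mean of 5 UMIs is met more easily by a gene that is high in anemia, since the anemic members hold more UMIs, so this count is a description. Ifi27l2a, an interferon-induced mitochondrial protein, ran from 0 to 58.2 CPM in controls (median 21.4) and from 46.8 to 501 CPM in anemia (median 170), overlapping at 1 anemic mouse (log2 fold change 3.19 ± 0.74, SE, edgeR adjusted p = 0.150). Ifitm3, an antiviral membrane protein, averaged 464 ± 211 and 948 ± 361 CPM (log2 fold change 1.11, edgeR adjusted p = 0.223), whereas its neighbour Ifitm2 averaged 468 ± 177 and 469 ± 106 CPM (SD, n = 6 each). The log2 fold change of Ifitm3 was 0.29 under the strict gate and 0.72 without anemia 2 and anemia 3, and that of Ifi27l2a 6.40 and 2.15. Ifi27l2a had 10 control UMIs over all members, and the strict gate keeps 34 of the 54 control members. Its value of 6.40 therefore rests on few control UMIs (edgeR adjusted p = 0.201). Without anemia 2 and anemia 3 only 6 of the list could be tested, and 5 were positive (median 0.92).

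The genes with the lowest p in the higher direction were Ms4a6c, Cers6, Lyz2, Cybb and Trps1, none called. Ms4a6c, a membrane protein of monocytes, ran from 0 to 12.4 CPM in the controls (1 UMI in all, in control 6) and from 64.1 to 542 CPM in the anemic mice (683 UMIs, median 169). The groups did not overlap, and the pooled ratio was 128 with a 95% exact interval of 22.9 to 5064 that covers counting error only (edgeR adjusted p = 0.0668). Cybb, the catalytic subunit of the phagocyte NADPH oxidase, had likewise 1 control UMI and 691 anemic UMIs (39.6 to 587 CPM, edgeR adjusted p = 0.0901). Lyz2, the lysozyme of myeloid cells, ran from 34.9 to 230 CPM and from 197 to 1648 CPM, overlapping (log2 fold change 3.32, edgeR adjusted p = 0.0901). Cers6, a ceramide synthase, ran from 0 to 48.9 CPM and from 91.6 to 583 CPM, and Trps1, a GATA-type repressor, from 0 to 121 CPM and from 179 to 656 CPM, both without overlap (edgeR adjusted p = 0.0901 each). The study lists Trps1, like Ms4a6c, among the identity genes of its monocyte cluster. Groups without overlap were found for 53 higher genes (0.799% of those tested) and 10 lower genes (0.151%). Under the strict gate the log2 fold changes of Ms4a6c, Lyz2, Trps1 and Cers6 were 3.77, 1.30, 1.76 and 5.61 (edgeR adjusted p = 0.258, 0.317, 0.276 and 0.166), and Cybb fell below the filter. That gate limits Lyz2, Csf1r and Adgre1 UMIs, so it bears on Lyz2 directly. With 1 control UMI for Ms4a6c and 0 to 48.9 CPM for Cers6, their fold changes rest on few control molecules. The whole list of 14 macrophage and monocyte genes summed to 74.1 to 353 CPM in control and 407 to 3397 CPM in anemic members, without overlap, and its 8 tested genes had a median of 3.46, or 3.36 with the gene at 0 in controls set to a floor of 3 UMIs over the group. Of these 8, 5 had 3 or fewer control UMIs and 1 had 10 or more, so most met the filter through the anemic mice and the median is a description.

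In the lower direction the lowest p values belonged to Pdzk1ip1, Adcy9, Psd3, Adgrg3 and Katnbl1. Pdzk1ip1, a small membrane protein, ran from 32.6 to 247 CPM in controls (median 77.5) and from 10.6 to 25.2 CPM in anemia (median 20.8). Every anemic mouse lay below every control, though the lowest controls rest on 1 UMI (control 1) and 2 UMIs (control 2), so 1 molecule fewer would make the groups overlap (log2 fold change −2.52, edgeR adjusted p = 0.125), and in the other kept cells the gene stood at 4.50 and 6.06 CPM. Adcy9, an adenylyl cyclase, averaged 78.1 ± 34.2 and 23.4 ± 14.2 CPM, Psd3, an exchange factor for ARF6, 186 ± 63.2 and 64.6 ± 37.1 CPM, Adgrg3, an adhesion receptor, 158 ± 131 and 33.0 ± 26.7 CPM, and Katnbl1, a katanin subunit, 144 ± 65.7 and 57.9 ± 18.2 CPM (SD, n = 6 each). Their edgeR adjusted p values were 0.176, 0.176, 0.194 and 0.196.

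**Figure D5:**
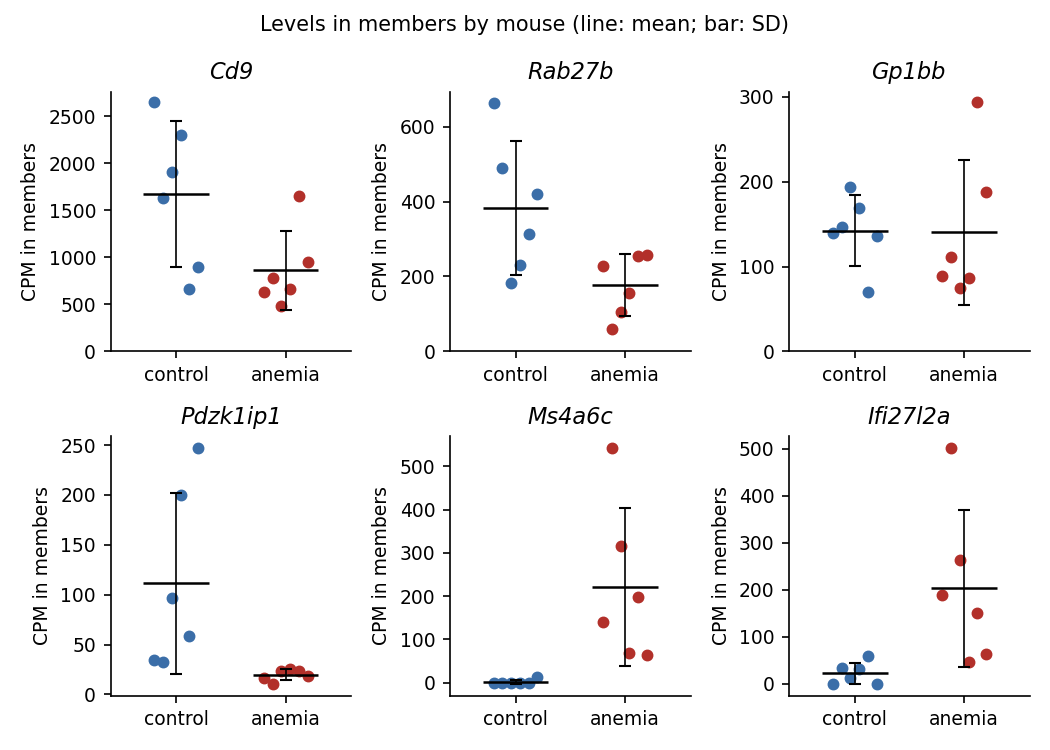
Level in the members of each mouse (CPM; points are mice, lines the mean, bars the SD) of 3 platelet genes (Cd9, Rab27b, Gp1bb), of Pdzk1ip1, and of Ms4a6c and Ifi27l2a. Pdzk1ip1 and Ms4a6c show no overlap between 6 control and 6 anemic mice, with the lowest Pdzk1ip1 controls at 1 and 2 UMIs, and Gp1bb has means of 142 and 140 CPM.

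RNA of other cell types lay beside these results. Summed over its list, globin RNA in the members ran from 209 to 782 CPM in controls and from 1349 to 13588 CPM in anemia, and stood at 4384 to 42584 and 35285 to 143309 CPM in the other kept cells. Hepatocyte RNA ran from 1320 to 20929 CPM and from 1919 to 28790 CPM in the members. Stellate RNA was higher in the members (139 to 13444 CPM in controls, 2206 to 10927 CPM in anemia) than in the other cells in 10 of 12 mice. Endothelial RNA was 69.7 to 1524 CPM and 193 to 1350 CPM, and B, T and NK cell RNA 34.9 to 617 CPM and 381 to 713 CPM. Neutrophil RNA was 46.6 to 139 CPM in 5 controls, 10405 CPM in control 4 and 94.8 to 1256 CPM in anemia (medians 74.9 and 789 CPM). Basophil and mast cell RNA ran from 0 to 169 CPM and from 7.20 to 518 CPM. The strict gate has no limit for it, and there it ran from 0 to 28.2 CPM in control and from 0 to 1947 CPM in anemia, with 1648 CPM in anemia 5 and 1947 CPM in anemia 6. With hepatocyte RNA as a covariate edgeR called 0 genes, and 750 had an unadjusted p under 0.05. The part of the other types in the gene values was not tested.

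A further fit asked whether a gene changed differently in the members than in the other kept cells of the same mice, with the mouse as a block. It called 4 of 6630 genes (0.0603%), with 818 at an unadjusted p under 0.05. Among the 4 called, Ms4a6c, Cybb and Cers6 had larger log2 fold changes in the members than elsewhere (difference of log2 fold changes 5.32, 5.27 and 2.31, edgeR adjusted p = 0.00246, 0.0177 and 0.0480). Ms4a6c and Cybb had 1 control UMI each, and Cers6 ran from 0 to 48.9 CPM in controls, below 5 UMIs in every control mouse. Ms4a6c, Cybb and Cers6 thus met the filter on a mean of 5 UMIs through the anemic mice, where they are high. These calls are given as a description. The strict gate called 0 of 3083 genes, with 327 at an unadjusted p under 0.05.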

How the data were processed

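The samples were 6 control and 6 anemic livers, each from another mouse and in a library of its own. The authors deposited UMI counts per gene and barcode, without normalization, made with Cell Ranger 7.0.0 per the file headers and aligned to mm10 per the labels. The labels and the study name different versions of the 10x kit. Barcodes under 500 UMIs were not in the deposited counts. The limits of 50000 UMIs and 20% mitochondrial UMIs removed 32 and 4948 barcodes of 207537. Doublets were kept and no caller was run.

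Members and lists were chosen with earlier results of these data known. The strict gate allows at most 2 monocyte or macrophage, 5 neutrophil and 1 endothelial UMIs and under 5% hepatocyte RNA, beside limits on lymphoid and stellate UMIs. CPM is UMIs per 1000000 UMIs of the members of a mouse. Shares were compared over mice by an exact Mann-Whitney test, two-sided. Summed UMIs were tested with edgeR 4.0.16 (quasi-likelihood, TMM, BH) in R 4.3.3, after leaving out genes under a mean of 5 UMIs per mouse, mitochondrial, ribosomal protein and rule genes. Tested on simulated data with 200 changed genes among 6630, it found 62 of them, 60 of which were among the 100 shifted by 2 log2 units, with 6 false calls. Alternatives used DESeq2 1.42.0 and limma 3.58.1. Python 3.11.15, numpy 2.4.6, scipy 1.17.1, pandas 2.3.3 and matplotlib 3.10.9 did the rest.

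Genes named are the 3 with the highest level in each list, the 5 with the lowest p per direction where fewer than 5 were called, and the 10 with the highest ratio of members to other kept cells among genes of at least 100 CPM. Some of the genes these rules pick are not reported here. The early erythroid gate and the 14 further megakaryocyte genes served for description alone. Intervals and floors cover counting error only.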

Additional observations from a re-analysis of the deposited data

Results flagged for a closer look

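Among 68 series of 6 mice checked, chance flags about 1 in 20, and 7 had a mouse far from the other 5. In anemia 5, with 18 members, 4 platelet genes stood above the other anemic mice: Ppbp at 3914 CPM, Nrgn at 1270 CPM, Rgs18 at 492 CPM and Alox12 at 437 CPM. A single barcode of this mouse held 894 marker UMIs, beside a median of 11.5. The levels of the mouse need not be those of most of its members. In anemia 4 the share of strict-gate members with at least 10000 UMIs was 27.8%, above the other anemic mice. In the controls, the single UMI of Ms4a6c in control 6 (12.4 CPM) and that of Cybb in control 5 (11.6 CPM) set those mice apart from 5 mice at 0.

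The change with anemia differed between members and other kept cells, by the edgeR interaction test, for Ms4a6c (5.32 on the log2 scale), Cybb (5.27) and Cers6 (2.31). Ms4a6c and Cybb, with 1 control UMI each, and Cers6, also low in controls, met the filter on low counts through the anemic mice. The values of these genes are a description. The explanation was not tested.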

How the results depend on the processing

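The higher share of members in anemia kept its direction and its side of 0.05 under all 25 alternatives. In the main setting every anemic mouse lay above every control. The alternatives that only left out mice or changed the test therefore had to keep both, and they add no support. The differences were 0.0508 percentage points (20 or more marker UMIs) to 0.355 (3 or more), and 0.166 to 0.284 when single mice were left out. The shares of large and cycling members passed 0.05 under no alternative. The difference in large members turned to −6.05 percentage points in the strict gate and −0.314 with at most 10% mitochondrial UMIs, was 11.2 with 20 or more marker UMIs, and ran from −1.27 to 2.03 when single mice were left out. That in cycling members turned to 3.01 with 8 or more marker UMIs and 15.5 with 20 or more, was −17.2 in the strict gate and −10.4 without thinning, and ran from −8.48 to 4.86 when single mice were left out. Genes called numbered 34 with DESeq2, 1 without TMM factors, 128 without a filter on low counts, 7 with Y-linked expression as a covariate, 35 with members thinned to 2000 UMIs, 9 with 8 or more marker UMIs, and 0 to 32 when single mice were left out, the 32 without control 4. Without TMM factors the median log2 fold change of all genes moved from 0.10 to −0.05. The replicate numbers did not pair the mice (correlations of −0.31 to 0.02), and a replicate block gave 4 calls. Genes whose change differed from other cells numbered 0 in the strict gate and 1 to 77 when single mice were left out, the 77 without control 4. The causes of these shifts were not tested. The marker sums of 20 and the fits without anemia 2 and anemia 3 were chosen after seeing the data. Depth limits the control side, where 54 members carry 404790 UMIs.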
